A study of Caenorhabditis elegans with 27 samples.

Results

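The right cluster of piRNA genes on chromosome IV of *Caenorhabditis elegans* is described here across small RNA (sRNA) libraries of wild-type and *pup* mutant adults. A piRNA listed in the count table was taken as a member by its place in the WBcel235 annotation. It needed that biotype and a start on chromosome IV between 13.5 and 17.2 Mb. Beyond that listing no measured level entered the choice, and every member had a count in some library. Of the 20150 sRNAs in the count table, 9849 were annotated piRNAs, and 7466 of these (75.8%) were members. The annotation holds 11388 piRNA genes in the window. The other piRNAs of the table were 1687 in the left cluster of chromosome IV, taken as 4.5 to 7 Mb, and 696 elsewhere.

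piRNAs, which in this nematode are called 21U-RNAs and carry 21ur names, guide the Argonaute PRG-1 to transcripts of the germline. Most are transcribed individually as short capped precursors from genes crowded into clusters on chromosome IV. The 5′ end is processed by the PETISCO complex and its partners, the 3′ end is trimmed by the ribonuclease PARN-1 and methylated by HENN-1, and target recognition by PRG-1 leads to secondary siRNAs made by RNA-dependent RNA polymerases. PUP-1, PUP-2, PUP-3 and PUP-4 are poly(U) polymerases, enzymes that add uridines to the 3′ ends of RNAs.

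The 27 libraries came from whole adult hermaphrodites 1 day into adulthood, grown at 22°C. Wild type (N2) had 6 libraries. Each mutant strain had 3: *pup-1(tm1021)*, *pup-2(tm4344)*, *pup-3(tm5089)*, *pup-4(om141)*, the *pup-1/-2(om129)* double mutant, the triple mutant, which adds *pup-3(tm5089)* to that double, and the quadruple mutant, which adds *pup-4(om141)* to the triple. The single mutants are called *pup-1(0)* and so on below. Second-generation animals were collected, and in the strains kept over a balancer chromosome these lacked both maternal and zygotic product of the balanced genes. The study describes the replicates as independent but does not say at which step they were separated, so p-values measure the spread between these libraries. Reads on a piRNA were counted on both strands and with any 3′ tail.

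Library totals ran from 972048 to 17562388 counts, with a median of 6692414. Members made up 1.60 to 5.26% of the counts of a library and 85.7 to 94.4% of its piRNA counts. Wild-type replicate 1, with 2054529 counts, stood apart from the other wild-type libraries, with 5.26% of its counts on members against 1.98 to 2.82% in the other 5. That library also held the most counts of the somatic microRNAs (miRNAs) *lin-4*, *mir-48*, *mir-84* and *mir-241*, at 105793 CPM (counts scaled to a common library size after TMM normalisation) against 5212 to 18394 in the other wild-type libraries. The 8 miRNAs of the *mir-35* family, which mark embryos and the germline, were detected in every library, at 12167 to 130021 CPM in sum. Somatic *let-7* is not analysed here. siRNAs antisense to *pup-1* were at 954 to 1559 CPM in wild type and 1059 to 1171 CPM in *pup-1(0)*, and those antisense to *pup-3* were at 34.5 to 87.0 CPM in wild type and 157 to 187 CPM in *pup-3(0)*. These sums run over the whole coding sequence, which need not be deleted in full, so they do not check the genotypes.

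Spearman correlations over 1963 members, given as a description, were higher between some libraries than between others in a way that the labels do not explain. The *pup-4(0)* and quadruple libraries averaged 0.831 to 0.913 with wild-type replicates 4 to 6 and 0.610 to 0.772 with replicates 2 and 3. Replicates 2 and 3 of the other 5 mutant strains averaged 0.766 to 0.863 with wild-type replicates 2 and 3 and 0.637 to 0.781 with replicates 4 to 6. Replicate 1 of these 5 strains averaged 0.684 to 0.754 with wild-type replicates 2 and 3 and 0.724 to 0.825 with replicates 4 to 6. In each strain the latter was higher. Wild-type replicate 1 averaged 0.591 with replicates 2 and 3 and 0.646 with replicates 4 to 6, so replicates 1 to 3 were not alike. Its highest correlation, 0.820, was with replicate 1 of the double mutant, and all other libraries were at 0.479 to 0.696 with it. That double library was at 0.646 and 0.702 with double replicates 2 and 3. For tail frequencies, the paper set 3 wild-type replicates beside 3 mutant replicates run in parallel, and its methods do not name these libraries. No label names a run or batch, so a batch and a genotype cannot be told apart here. Counts of changed members are therefore given below with each set of 3 wild-type libraries.

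Each member was annotated as 21 nt long, with 3788 on the plus and 3678 on the minus strand, which held 51.5 and 48.5% of the wild-type signal. By position, 4924 members (66.0%) were intergenic, 2231 (29.9%) lay in an intron of a protein-coding gene, 85 (1.14%) in an untranslated exon and 226 (3.03%) in coding sequence. In 2522 cases a member overlapped another piRNA gene, so that reads may have been counted for both. The left cluster was less often intergenic (46.2%) and more often intronic (46.9%).

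Levels were low and uneven. The median member had a wild-type mean of 0.118 CPM, while the 75th, 90th and 99th percentiles were 0.806, 4.69 and 88.7 CPM. Members over 1 CPM numbered 1694, those over 10 CPM 442 and those over 100 CPM 66. The 10 most abundant members held 18% of the wild-type signal, the top 100 held 57.1% and the top 500 held 86.1%. Replicate 1 weighs most in these wild-type means, with 76221 CPM on members against 20075 to 27728 CPM in the other libraries. Taken within each of the other wild-type libraries, its own top 10 held 16.1 to 21.6%. At the other end, 1716 members had no count in any wild-type library, although each member had a count somewhere among the 27 libraries, and 967 had a count in every library. The number of members with a count was 1643 in the shallowest library and 5442 in the deepest. Only 1963 members (26.3%) passed the filter on low counts for testing, and these carried 97.7% of the wild-type signal. The share that passed was 26.7% of intergenic, 25.9% of intronic and 22.1% of coding-sequence members. The other members are counted in the summed level alone.

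**Figure D1:**
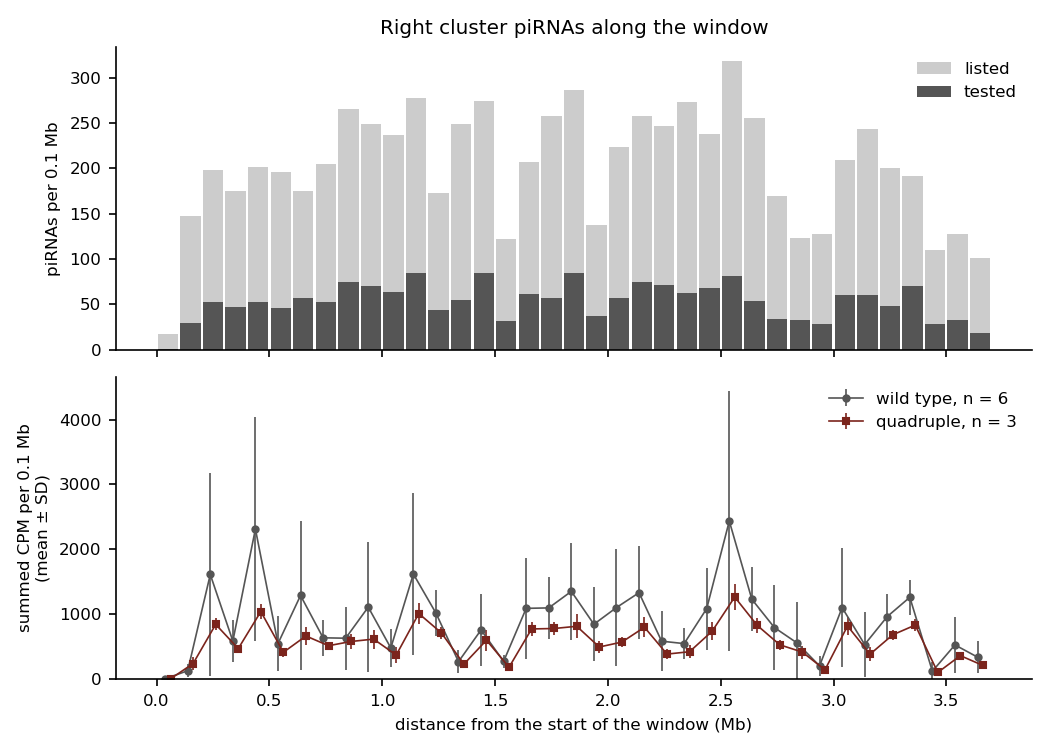
Members along the window in bins of 0.1 Mb, by distance from its start in Mb. The upper panel counts listed members and those tested, and the lower panel gives the summed CPM per bin as mean ± SD for wild type (n = 6) and the quadruple mutant (n = 3). The quadruple mean lies below the wild-type mean in all but 1 of the 35 bins with at least 20 tested members, but above it in 13 of them once wild-type replicate 1, which is in the mean plotted, is left out.

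The signal was spread over the whole window, as the profile along it shows. In the 35 bins of 0.1 Mb with at least 20 tested members, the log2 ratio of quadruple to wild-type mean ran from -1.15 to 0.90, with a median of -0.51. These ratios rested on wild-type replicate 1. Without it they ran from -0.64 to 1.42, with a median of -0.14, and 13 bins were above 0. With all 6 wild-type libraries the single bin above 0 lay 0.1 to 0.2 Mb from the start of the window, at 129 CPM in wild type, 89.9 CPM without replicate 1 and 240 CPM in the quadruple mutant. It holds 3 of the members in SmY genes described below.

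The most abundant members were *21ur-13367*, *21ur-11000*, *21ur-14852*, *21ur-2290*, *21ur-1404*, *21ur-4730*, *21ur-11278* and *21ur-5432*, which together held 15.8% of the wild-type signal. Of these, *21ur-11278* lies in the coding sequence of *Y57G11C.499*, on the opposite strand, so its reads may include siRNAs antisense to that gene. *21ur-13367* (IV:13700227-13700247, minus strand, intergenic) was at 390 CPM in the lowest, 516 CPM in the median and 4012 CPM in the highest wild-type library, the highest being replicate 1. It was at 207, 447 and 2039 CPM in *pup-1(0)*, at 351, 524 and 354 CPM in *pup-4(0)* and at 381, 307 and 266 CPM in the quadruple mutant. The *pup-1(0)* libraries lay both below and above most of the wild-type libraries, while all 3 quadruple libraries were below every wild-type library.

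Across these 8 members and 7 mutant strains, 56 log2 fold changes lay between -1.80 and 0.84. To be called differentially abundant (DA), an sRNA needed a log2 fold change beyond 1 in either direction and a p below 0.05 in the quasi-likelihood test of edgeR, adjusted by Benjamini-Hochberg over all 9645 tested sRNAs. By that rule 1 of the 56 was called. *21ur-11000* (IV:16041083-16041103, plus strand, intergenic) was at 361 CPM in the lowest, 635 CPM in the median and 2779 CPM in the highest wild-type library, and at 327, 309 and 257 CPM in the quadruple mutant, each below every wild-type library. The fall had a log2 fold change of -1.66 (SE 0.60, adjusted p = 0.0353). Without wild-type replicate 1 it was -1.02 with an adjusted p of 0.082, and the call was also lost without any 1 of the 3 quadruple replicates.

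The summed level of all 7466 members was 32370 ± 21677 CPM in wild type (SD, n = 6), where replicate 1 was at 76221 CPM and the others at 20075 to 27728 CPM. Without replicate 1 it was 23600 ± 3242 CPM (SD, n = 5). In *pup-1(0)* it was 16340, 27224 and 45989 CPM, in *pup-2(0)* 28667, 35925 and 44883 CPM, and in *pup-3(0)* 19522, 40247 and 46928 CPM. No library of any mutant was above the wild-type range, since replicate 1 set its upper end, and 1 library each of *pup-1(0)* and *pup-3(0)* was below it. The *pup-4(0)* libraries were at 20716, 23090 and 19276 CPM. The double mutant was at 26181, 30068 and 32286 CPM, the triple at 19907, 24620 and 29532 CPM and the quadruple at 24567, 18744 and 19185 CPM. Below every wild-type library were 1 *pup-4(0)*, 1 triple and 2 quadruple libraries.

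The log2 ratios of the mean summed level to wild type were -0.12, 0.17, 0.14 and -0.62 in the *pup-1*, *pup-2*, *pup-3* and *pup-4* single mutants, and -0.13, -0.39 and -0.64 in the double, triple and quadruple mutants. Leaving out wild-type replicate 1 gave 0.34, 0.63, 0.59, -0.17, 0.32, 0.06 and -0.18 in the same order, so the sign turned in *pup-1(0)*, the double and the triple mutant. All 3 *pup-2(0)* libraries, 2 each of *pup-3(0)* and the double mutant and 1 each of *pup-1(0)* and the triple mutant were then above the wild-type range. In whole animals, fewer germ cells and fewer piRNAs per germ cell cannot be told apart. Beside these values, the *mir-35* family was at 22718 to 93851 CPM in wild type. It was at 12167 to 89700 CPM in *pup-1(0)*, 54081 to 106158 CPM in *pup-2(0)*, 63737 to 130021 CPM in *pup-3(0)* and 46861 to 50867 CPM in *pup-4(0)*. The double mutant had 23828 to 30702 CPM, the triple 42277 to 57006 CPM and the quadruple 21674 to 32257 CPM. The 4 somatic miRNAs were at 24656, 67890 and 61061 CPM in replicates 1 to 3 of the double mutant and at 6250 to 33161 CPM in the other mutant strains. *mir-1*, a muscle miRNA, was at 13910, 8952 and 9632 CPM in the double mutant, within the 3100 to 91642 CPM of wild type. Wild-type replicate 1 was the highest of all libraries in *mir-1* too. The part of these miRNA levels in the summed level was not tested.

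**Figure D2:**
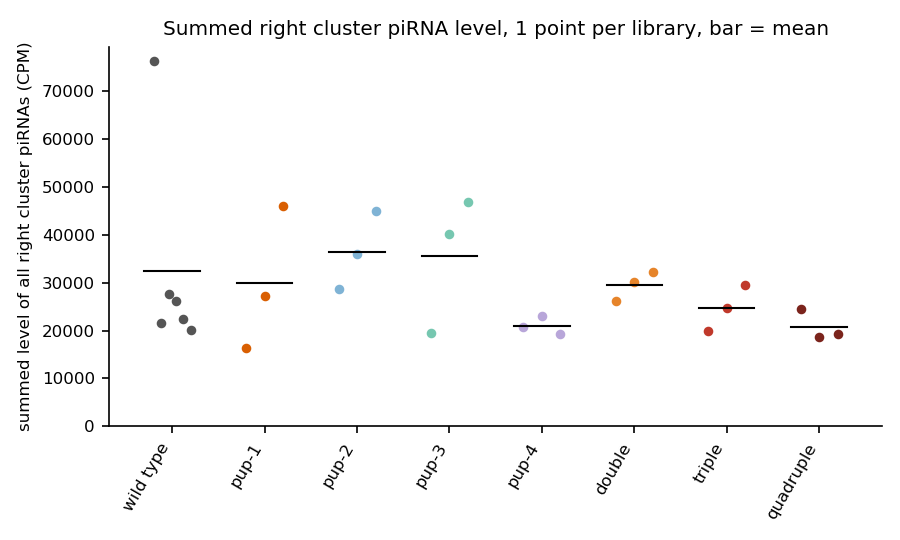
Summed level of all right cluster piRNAs in CPM for each library, grouped by strain, with a bar at the mean (n = 6 for wild type, n = 3 for each mutant). Wild-type replicate 1 sits at 76221 CPM, above all other libraries, and the other wild-type libraries lie between 20075 and 27728 CPM.

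Loss of *pup-1*, alone or with other *pup* genes, came with changes in single members, in both directions. In *pup-1(0)* 41 members were higher and 88 lower than in wild type, 6.57% of those tested, against 21% of all tested sRNAs (7.44% higher and 13.5% lower). The double mutant had 60 higher and 38 lower members (4.99%), against 21.1% of all sRNAs (8.65% higher and 12.5% lower). In the triple mutant 40 were higher and 35 lower (3.82%), against 17.6% (5.73% higher and 11.9% lower). In the quadruple mutant 55 were higher and 48 lower (5.25%), against 21.2% (8.3% higher and 12.9% lower). In each of the 4 strains, the share of members called was thus below that of all sRNAs. Replicates agreed less over members, with Spearman correlations of 0.589 to 0.931 within genotypes, against 0.870 to 0.994 over other sRNAs. A lower share called therefore need not mean smaller changes. The median log2 fold change of members was -0.34, -0.20, -0.27 and -0.12 in these strains, and that of all tested sRNAs -0.26, -0.12, -0.20 and -0.13. The 4 comparisons share the wild-type libraries. The split between higher and lower calls depended on the scaling: with total counts it was 52 and 51 in *pup-1(0)*, 45 and 45 in the double, 67 and 13 in the triple and 71 and 15 in the quadruple mutant. That scaling moved the median of all sRNAs to -0.16, -0.20, 0.04 and 0.17 in these strains.

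Strains that kept *pup-1* had few calls. *pup-2(0)* had 1 higher and 0 lower members (0.0509%, against 0.518% of all sRNAs), and *pup-3(0)* had 2 higher and 0 lower (0.102%, against 0.404%). *pup-4(0)* had 0 calls by edgeR's test, against 0.0518% of all sRNAs, with 102 members at an unadjusted p under 0.05 and 2 called by DESeq2. The median log2 fold change of members was 0.14, 0.06 and -0.25 in the 3 strains. Over the 7 mutant strains, 290 members were called at least once, 114 of them as higher and 176 as lower, none as both, and 1673 were called in no strain. Counts of this kind were not made over all tested sRNAs.

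Not all of these calls set the libraries apart. All 3 mutant libraries lay outside the wild-type range for 28 of 41 higher and 20 of 88 lower members in *pup-1(0)*. The same held for 17 of 60 and 11 of 38 in the double, 28 of 40 and 14 of 35 in the triple, and 38 of 55 and 28 of 48 in the quadruple mutant. The matching shares over all tested sRNAs were not counted, so these are no trait of the members. Several counts rested on 1 library. In *pup-1(0)* the count was 223 without wild-type replicate 3 and 63 without *pup-1(0)* replicate 2. In the double mutant it was 283 without wild-type replicate 1, 207 without double replicate 1 and 55 without double replicate 2. For the triple mutant it was 114 without wild-type replicate 3, 40 without triple replicate 2 and 47 without triple replicate 3. The quadruple count was 50, 54 and 63 without quadruple replicate 1, 2 and 3.

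The replicate number as a block in the fit also moved these counts. With it the double mutant had 31 higher and 21 lower members, the quadruple mutant 100 and 196, and *pup-4(0)* 9 and 35, while *pup-2(0)* and *pup-3(0)* had 0. Deviations from the group means correlated at over 0.1 with those of the same-numbered wild-type library in all 3 pairs for the double mutant over members (0.25 to 0.30) but not over all sRNAs, and for the quadruple mutant over all sRNAs (0.10 to 0.40) but not over members. No other strain had all 3 pairs over 0.1 on either measure.

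The counts also changed with the wild-type set. Against wild-type replicates 1 to 3, *pup-1(0)* had 30 higher and 105 lower members (19.6% of all sRNAs were called), the double mutant 28 and 17 (17.5%), the triple 28 and 64 (17.1%) and the quadruple 81 and 209 (23.1%). *pup-2(0)* and *pup-3(0)* then had 0 (0.511 and 0.344% of all sRNAs), and *pup-4(0)* had 4 higher and 38 lower members (2.12%). Against replicates 4 to 6, *pup-1(0)* had 110 higher and 147 lower members (24.5% of all sRNAs), the double 251 and 108 (28.2%), the triple 108 and 79 (20.6%) and the quadruple 44 and 18 (22.2%).

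With that second set, *pup-2(0)* had 62 higher and 6 lower members (3.43% of members and 2.43% of all sRNAs) and *pup-3(0)* 65 and 5 (3.53% and 2.67%), while *pup-4(0)* had 0 (0.0931%). The quadruple mutant therefore had more calls with replicates 1 to 3, and the other 3 strains without *pup-1* more with replicates 4 to 6. Members called the same way with all 6 wild-type libraries and with either set of 3 numbered 15 higher and 24 lower in *pup-1(0)*, 20 and 5 in the double, 20 and 11 in the triple, and 27 and 6 in the quadruple mutant. How many of all sRNAs were called so was not counted.

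**Figure D3:**
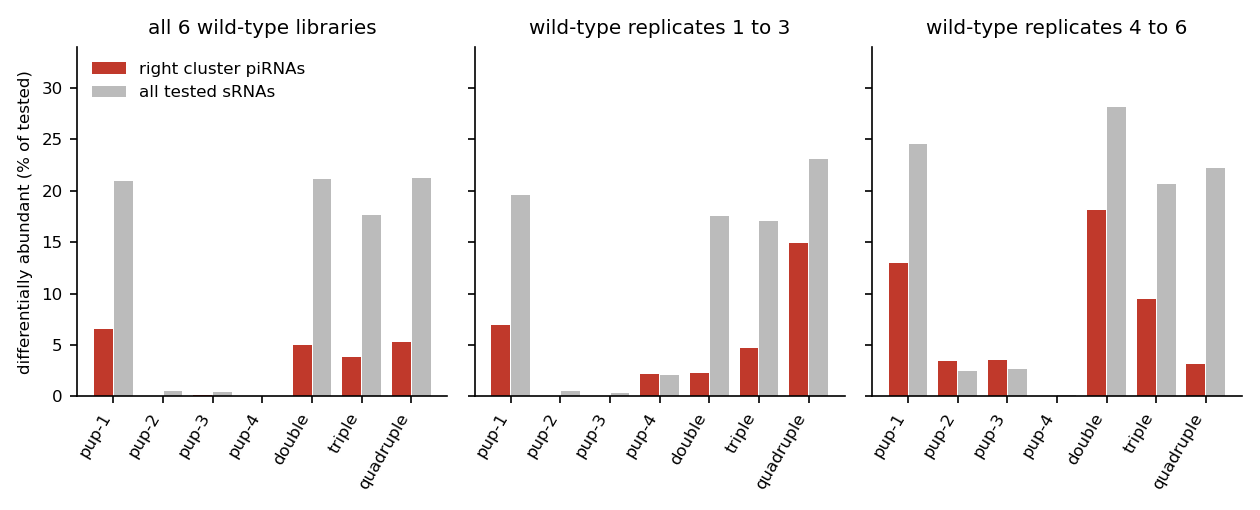
Share of tested right cluster piRNAs and of all tested sRNAs called DA in each mutant against all 6 wild-type libraries, replicates 1 to 3 alone or replicates 4 to 6 alone, in percent. With all 6 libraries, members stand at 3.82 to 6.57% in the 4 strains lacking *pup-1*, and all sRNAs at 17.6 to 21.2%.

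A group of 14 members was higher in all 4 strains lacking *pup-1*, and 0 members were lower in all 4. The same counts were not made over all tested sRNAs, so the 14 and 0 are not read as a trait of the cluster. Of the 14, 7 are intergenic, 6 lie in introns and 1 in coding sequence. The 4 strains share the wild-type libraries, so their calls are not independent. In the other single mutants none of the 14 was called by edgeR, with a lowest adjusted p of 0.232. Their log2 fold changes there ran from -1.89 to 2.04, both in *21ur-7091*, so a missing call does not mean an unchanged level. The 6 that were also called higher in each strain with either set of 3 wild-type libraries were *21ur-5397*, *21ur-3878*, *21ur-2660*, *21ur-12761*, *21ur-13572* and *21ur-9061*, and in these 6 no call was lost when any 1 library was left out.

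*21ur-9061* (IV:15714007-15714027, minus strand) lies in an intron of *Y105C5A.15*, on the opposite strand. It was at 0 CPM in the lowest, 1.25 CPM in the median and 2.82 CPM in the highest wild-type library. It was at 15.5, 14.7 and 19.4 CPM in *pup-1(0)* and at 9.27, 15.6 and 12.6 CPM in the double mutant. The triple mutant had 25.5, 12 and 15.3 CPM and the quadruple mutant 32.7, 29.3 and 26.9 CPM. Every one of these 12 libraries was above all wild-type libraries and above the other 9 mutant libraries, of which the highest had 1.97 CPM. The log2 fold changes were 3.75, 3.34, 3.80 and 4.59 (SE 0.43 in each), with a largest adjusted p of 2.01e-06.

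*21ur-13572* (IV:14932520-14932540, plus strand, intergenic) had 4 counts in all wild-type libraries together and at most 0.148 CPM in any of them. It was at 5.58, 3.43 and 2.61 CPM in *pup-1(0)*, at 0.993, 0.422 and 1.18 CPM in the double mutant and at 3.35, 1.42 and 1.43 CPM in the triple mutant. The quadruple libraries had 4.13, 2.31 and 4.46 CPM. The groups did not overlap, but the member passed the filter on low counts only through libraries of these 4 strains. Levels in the double mutant were the lowest of the 4. The log2 fold changes were 5.20, 3.14, 4.23 and 5.16 (SE 0.67 to 0.74).

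*21ur-3878* (IV:14377673-14377693, minus strand) lies in an intron of *Y67A10A.7*, on the opposite strand. It was at 0 CPM in the lowest, 2.53 CPM in the median and 3.27 CPM in the highest wild-type library, at 20.5, 30.9 and 33.6 CPM in *pup-1(0)* and at 6.62, 12.7 and 10.3 CPM in the double mutant. The triple mutant was at 16.1, 14.5 and 22.8 CPM and the quadruple at 18.3, 24.0 and 19.7 CPM. All 12 libraries were above wild type, with *pup-1(0)* highest on average and the double mutant lowest, at log2 fold changes of 3.56, 2.02, 2.88 and 3.09. siRNAs antisense to *Y67A10A.7* had log2 fold changes of 1.37, 1.04, 1.28 and 1.08 in the same strains.

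*21ur-2660* (IV:15118038-15118058, minus strand, intergenic) was at 0.317 CPM in the lowest, 3.73 CPM in the median and 4.94 CPM in the highest wild-type library. *pup-1(0)* had 8.06, 12.6 and 13.3 CPM, the double 10.9, 13.3 and 12.3 CPM, the triple 17.4, 14.0 and 18.4 CPM and the quadruple 30.1, 44.3 and 31.5 CPM. No mutant library of the 4 strains overlapped wild type, and the quadruple libraries were above all the others. The log2 fold changes were 1.87, 1.95, 2.39 and 3.49.

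*21ur-12761* (IV:16385063-16385083, minus strand, intergenic) was at 2.82 CPM in the lowest, 3.99 CPM in the median and 7.01 CPM in the highest wild-type library. It was at 22.9, 20.1 and 9.78 CPM in *pup-1(0)*, 12.9, 29.4 and 29.3 CPM in the double, 26.1, 22.1 and 24.4 CPM in the triple and 38.0, 28.7 and 29.6 CPM in the quadruple mutant. Again no library of the 4 strains overlapped wild type, and the double mutant overlapped each of the other 3 strains. The log2 fold changes were 1.99, 2.46, 2.47 and 2.88.

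*21ur-5397* (IV:16113213-16113233, minus strand, intergenic) was the most abundant of the 14 in wild type, at 6.97 CPM in the lowest, 12.4 CPM in the median and 16.9 CPM in the highest library. It was at 39.7, 63.1 and 81.9 CPM in *pup-1(0)* and at 26.8, 52.4 and 62.0 CPM in the double mutant. The triple was at 28.8, 47.1 and 54.0 CPM and the quadruple at 43.7, 46.4 and 53.3 CPM. The strains lacking *pup-1* were again above wild type in every library, and 1 *pup-3(0)* library, at 27.8 CPM, was above the lowest of them. Log2 fold changes were 2.38, 1.98, 1.88 and 2.00.

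**Figure D4:**
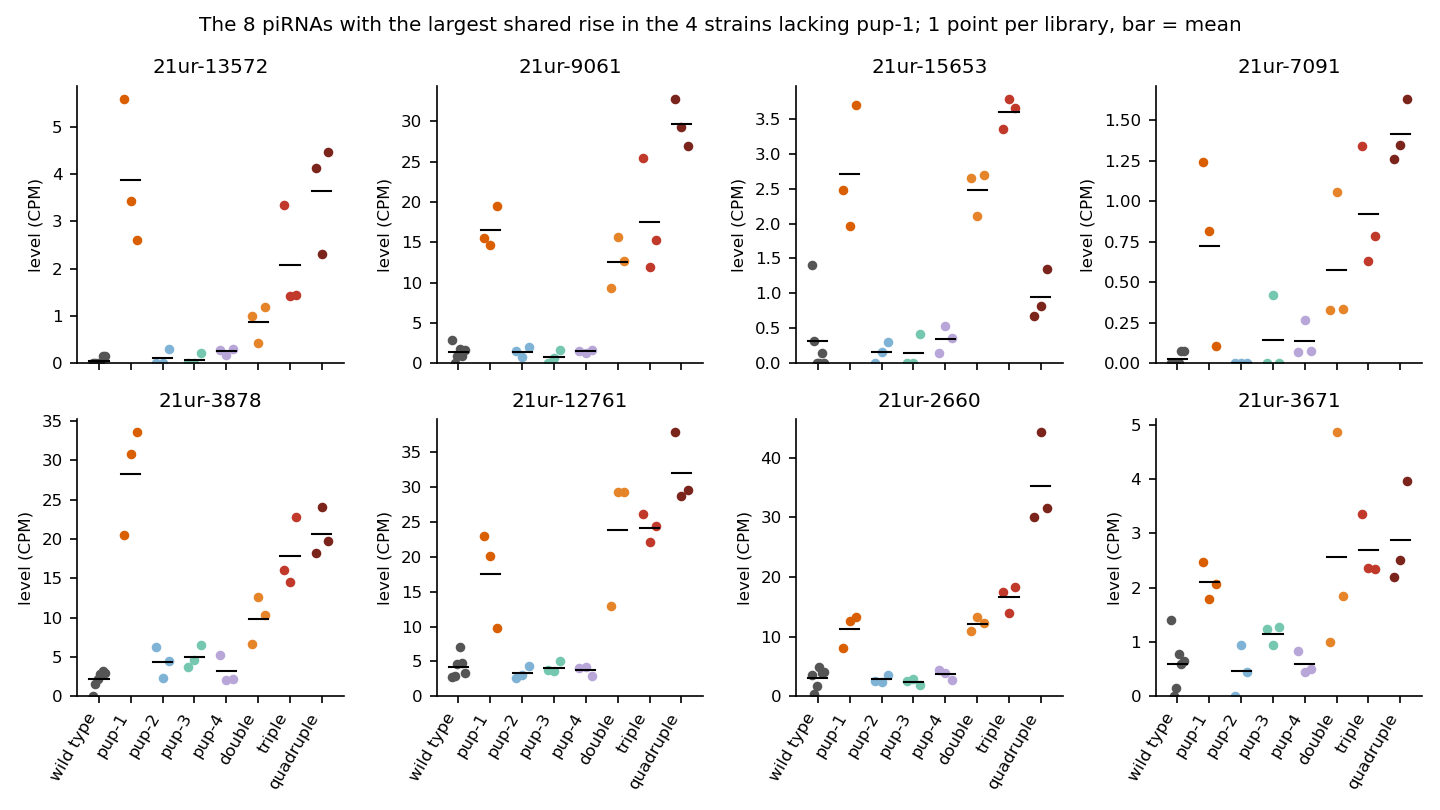
Level in CPM per library, with a bar at the mean, of the 8 members with the largest mean rise among those called higher in all 4 strains lacking *pup-1* (n = 6 for wild type, n = 3 for each mutant). *21ur-9061*, *21ur-3878*, *21ur-12761* and *21ur-2660* show all 12 libraries of these strains above wild type, while *21ur-15653* overlaps it in the quadruple mutant and *21ur-3671* in the double mutant.

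In each of the other 8 members at least 1 call was lost when a library was left out. *21ur-15653* (IV:15680291-15680311, plus strand, intergenic) had 5 wild-type counts in all, with 1.41 CPM in replicate 1 and at most 0.317 CPM in the others. It was at 2.48, 1.96 and 3.69 CPM in *pup-1(0)*, 2.65, 2.11 and 2.70 CPM in the double, 3.35, 3.78 and 3.65 CPM in the triple and 0.673, 0.819 and 1.35 CPM in the quadruple mutant, where all libraries lay within the wild-type range. Its log2 fold changes were 4.13, 3.99, 4.53 and 2.61, the last lost without quadruple replicate 3 (2.26) or with the replicate block (1.41). *21ur-7091* (IV:15537444-15537464, plus strand, in an intron of *Y73F8A.35* on the opposite strand) had 2 wild-type counts in all. It passed the filter on low counts only through strains lacking *pup-1*. Its ratio of pooled levels to wild type was 10 in *pup-1(0)* (95% counting interval 2 to 96.8), 11.4 in the double (2.37 to 109), 16.4 in the triple (3.65 to 151) and 29.9 in the quadruple mutant (7.96 to 252). The calls in *pup-1(0)* and the double mutant were lost without replicate 2 of that strain, at log2 fold changes of 2.88 and 2.51, and with the replicate block, at adjusted p-values of 0.0544 and 0.0543.

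*21ur-3671* (IV:16707093-16707113, plus strand, intergenic) was at 0 to 1.41 CPM in wild type and 0.993 to 4.86 CPM in the 12 libraries, with log2 fold changes of 1.92 to 2.40. Its call was lost in *pup-1(0)* without replicate 3 (1.92) and in the double mutant without replicate 2 (1.37). *21ur-8359* was at 1.90 to 7.27 CPM in wild type and 6.55 to 20 CPM in the 12 libraries, and *21ur-12743*, in an intron of *egl-23*, at 0.965 to 1.58 and 1.63 to 6.86 CPM. In the other single mutants *21ur-3671* was at 0 to 1.27 CPM, *21ur-8359* at 3.28 to 9.55 CPM and *21ur-12743* at 0 to 4.85 CPM. Each of these ranges overlapped that of the 12 libraries. Both *21ur-8359* and *21ur-12743* lost the call in *pup-1(0)* without replicate 2, at 1.06 and 0.65. *21ur-12743* also lost that in the double mutant without replicate 3 (1.26) or with the replicate block (1.37). *21ur-3239*, in an intron of *fbxa-83*, had 14 wild-type counts, and most of its calls were lost in turn with single libraries left out, and all 4 with the replicate block. It was at 0.327 to 2.68 CPM in the 12 libraries and at 0.210 to 1.25 CPM in the other single mutants. The last of them, *21ur-458*, is described with the SmY genes.

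*21ur-4396* (IV:14151064-14151084, plus strand) lies in the coding sequence of *oac-38*, on the opposite strand, where the count of antisense siRNAs covers it. Its counts equalled those of the *oac-38* siRNAs in 26 of 27 libraries and differed by 1 in the remaining library, so the same reads stand under both names. It was at 3.48 CPM in the lowest, 4.78 CPM in the median and 8.68 CPM in the highest wild-type library, and at 8.04 to 23.4 CPM in the 12 libraries. Its log2 fold change in *pup-1(0)*, 1.11, fell to the threshold or below without wild-type replicate 1 (1.00), wild-type replicate 2 (0.92) or *pup-1(0)* replicate 3 (0.82).

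Among members that fell in *pup-1(0)* with all 3 libraries outside the wild-type range, the 3 largest falls were to 0 counts. *21ur-3150* (intergenic) was at 0.147 CPM in the lowest, 0.699 CPM in the median and 5.64 CPM in the highest wild-type library. *21ur-6422* (in an intron of *xdh-1*, same strand) was at 0.147, 1.10 and 4.23 CPM, and *21ur-6126* (intergenic) at 0.293, 0.515 and 6.35 CPM. In each the highest library was wild-type replicate 1. Against a floor of 3 counts over the *pup-1(0)* libraries, the 3 were at least 5.19-fold, 5.46-fold and 3.99-fold lower. The calls were lost without single *pup-1(0)* libraries, replicates 2 and 3 for *21ur-3150* and *21ur-6126* and any of the 3 for *21ur-6422*. Over all tested members 20 were at 0 in *pup-1(0)*, and 9 of these were called.

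In the double mutant the largest falls of this kind were those of *21ur-2706*, *21ur-470* and *21ur-13942*, all intergenic. *21ur-470* (IV:17073362-17073382, plus strand) was at 1.11 CPM in the lowest, 1.57 CPM in the median and 1.97 CPM in the highest wild-type library, and at 0.166, 0 and 0.337 CPM in the double mutant. The libraries were well apart, at a log2 fold change of -3.07 (SE 0.61, adjusted p = 0.000362). *21ur-13942* fell by 2.85 on the log2 scale. *21ur-2706* was at 0.219 to 2.60 CPM in wild type and at 0, 0.211 and 0 CPM in the double mutant, and its call (log2 fold change -3.66, adjusted p = 0.0434) was lost without wild-type replicate 2 or 4 or double replicate 1 or 3, at -3.56, -3.08, -3.13 and -3.12, and with the replicate block (-3.75).

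In the triple mutant 9 tested members were at 0 counts, of which 6 were called, and the 3 largest falls outside the wild-type range were among these. *21ur-15676* (intergenic) was at 0.147 CPM in the lowest, 1.44 CPM in the median and 6.35 CPM in the highest wild-type library, which was replicate 1, and at least 7.07-fold lower in the triple mutant. *21ur-3242*, in an intron of the nucleoside transporter gene *ent-4*, was at 0.633, 1.03 and 1.30 CPM in wild type and at least 5.61-fold lower. *21ur-466*, in an intron of *paqr-3*, was at 0.293, 0.442 and 1.30 CPM and at least 2.56-fold lower. The last call (adjusted p = 0.0458) was lost without wild-type replicate 1, 4, 5 or 6 or any triple replicate, with adjusted p-values of 0.0527 to 0.162. None of these 3 members was at 0 in every library of another strain.

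In the quadruple mutant, whose libraries were deep, 0 tested members had no count in all 3 libraries. Its largest rises outside the wild-type range were those of *21ur-13572*, *21ur-9061* and *21ur-15689*. The last of these (IV:16004715-16004735, plus strand, in an intron of *jac-1* on the opposite strand) had 3 counts in wild-type replicate 6 and 0 in the other 5. It was at 2.27, 2.26 and 2.05 CPM in the quadruple mutant, at a ratio of pooled levels of 31.1 (95% counting interval 10.4 to 153). It passed the filter on low counts through the quadruple libraries alone, so this ratio is a description. The 18 libraries of the other mutants had at most 0.788 CPM.

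The falls in the quadruple mutant were smaller. *21ur-8936*, in an intron of *Y105C5A.1*, was at 0.668 CPM in the lowest, 1.42 CPM in the median and 3.17 CPM in the highest wild-type library and at 0.168, 0.241 and 0.142 CPM in the quadruple mutant, a log2 fold change of -2.93 (SE 0.88, adjusted p = 0.0107) that was lost without quadruple replicate 3. *21ur-1253*, in an intron of *anoh-2*, fell by 2.90 on the log2 scale, and the call was lost without wild-type replicate 2 (-2.30) or any quadruple replicate. *21ur-5791* (intergenic) was at 3.80 CPM in the lowest, 5.20 CPM in the median and 83.9 CPM in the highest wild-type library and at 3.20, 2.94 and 2.62 CPM in the quadruple mutant. Wild-type replicates 1 and 3 were far above the other 4, and the log2 fold change of -2.72 (adjusted p = 0.0497) was -1.68 without replicate 1 and no longer called. It was also lost without wild-type replicate 3 (-2.59) and any quadruple replicate.

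Some members lie inside genes for SmY RNAs, small nuclear RNAs that take part in spliced-leader trans-splicing in nematodes. They were chosen for description after their values were seen. The annotation has 12 SmY genes, of which 5 lie in the window and 3 hold a member, and the 4 such members are the only piRNAs of the table inside an SmY gene. Each lies near the 5′ end, on the same strand. *21ur-3338* (IV:13600849-13600869) covers bases 3 to 23 and *21ur-2046* (IV:13600852-13600872) bases 6 to 26 of *smy-8* (79 nt), so these 2 overlap and can share reads. *21ur-3398* (IV:13601639-13601659) covers bases 4 to 24 of *smy-10* (90 nt), and *21ur-458* (IV:14864746-14864766) bases 3 to 23 of *smy-12* (80 nt), in an intron of *Y57G11C.38*.

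*21ur-3338* was at 5.28 CPM in the lowest, 8.58 CPM in the median and 11.7 CPM in the highest wild-type library and at 17.4, 9.47 and 3.15 CPM in *pup-1(0)*. It was at 50.7, 49.9 and 75 CPM in the double, 38.2, 36.9 and 23.3 CPM in the triple and 80.4, 63.1 and 70.5 CPM in the quadruple mutant. *pup-1(0)* overlapped wild type, while every library of the double, triple and quadruple mutants was above it. The log2 fold changes were 0.12 in *pup-1(0)* (adjusted p = 0.831), 2.80 in the double (SE 0.32, adjusted p = 3.77e-07), 1.95 in the triple and 3.09 in the quadruple mutant (adjusted p = 6.79e-08). The double mutant was also above *pup-1(0)*, by 2.68 on the log2 scale (SE 0.41, adjusted p = 0.000309). The single *pup-2*, *pup-3* and *pup-4* mutants were at 4.22 to 9.98 CPM.

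*21ur-3398* was at 0.587 CPM in the lowest, 0.986 CPM in the median and 2.34 CPM in the highest wild-type library, at 1.24, 0.817 and 3.04 CPM in *pup-1(0)*, and at 3.97, 9.29 and 8.77 CPM in the double mutant. It was at 2.68, 7.56 and 6 CPM in the triple and at 17.4, 13.0 and 10.6 CPM in the quadruple mutant. Every library of the double, triple and quadruple mutants was above wild type, and *pup-1(0)* overlapped it, with log2 fold changes of 0.61 (adjusted p = 0.362), 2.61, 2.24 and 3.51. *21ur-458* was called in *pup-1(0)* as well, at 2.48, 3.92 and 3.26 CPM there against 0 to 1.82 CPM in wild type, with log2 fold changes of 2.08, 2.09, 1.69 and 2.86. Its call in the triple mutant (adjusted p = 0.0375) was lost without wild-type replicate 5 or 6 or any triple replicate, at 1.33 to 1.87, and that in the double mutant without replicate 3 (1.41). *21ur-2046* was called in the quadruple mutant alone, at 2.23 (adjusted p = 0.0111), with 1.62 in the double mutant (adjusted p = 0.0768).

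**Figure D5:**
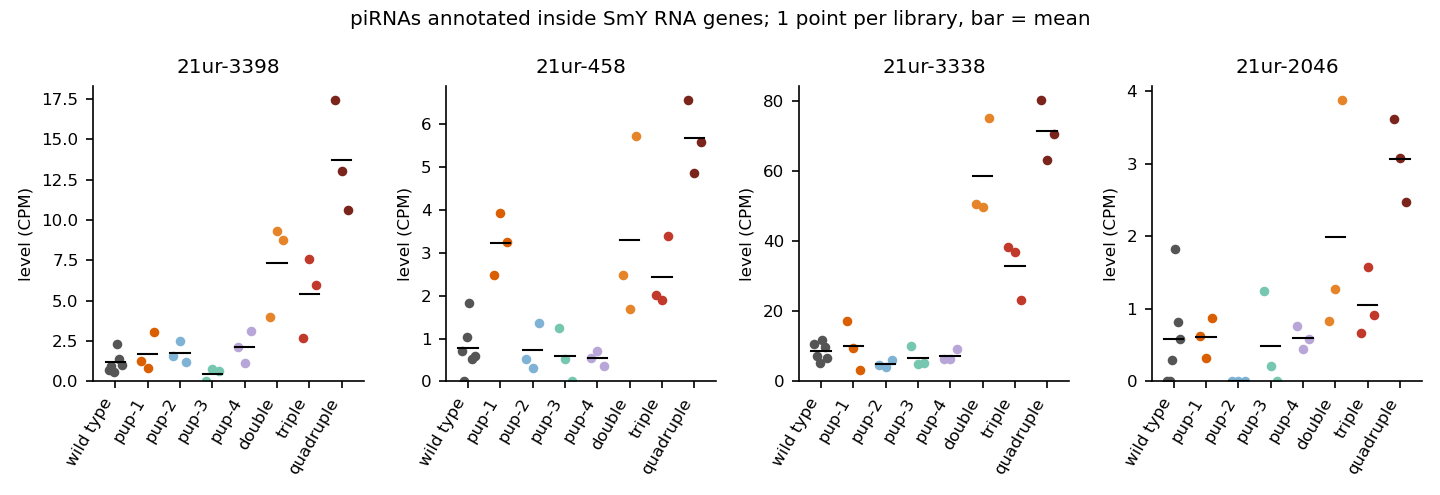
Level in CPM per library, with a bar at the mean, of the 4 members annotated inside SmY RNA genes (n = 6 for wild type, n = 3 for each mutant). *21ur-3338* lies at 23.3 to 80.4 CPM in the double, triple and quadruple mutants and at 3.15 to 17.4 CPM in *pup-1(0)*, against 5.28 to 11.7 CPM in wild type.

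All 4 SmY members were thus called in the quadruple mutant and 3 of 4 in both the double and the triple mutant. Of the tested members that overlap other non-coding genes, 15 in pseudogenes, 5 in ncRNA genes, 2 in miRNA genes and 1 in a snoRNA gene, 0 were called in these 3 strains by edgeR. The contrast did not hold in *pup-1(0)*. There 1 member in a pseudogene was higher and 1 lower, and 1 in an ncRNA gene and 1 in a snoRNA gene were lower. Of the 4 SmY members 1 was higher there. Reads of 15 to 26 nt were counted, so a piRNA and a fragment of the SmY RNA from the same bases cannot be told apart by the count.

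The few calls in the strains that kept *pup-1* rested on single libraries. In *pup-2(0)*, *21ur-6899* (IV:16698301-16698321, minus strand, intergenic) was at 2.09, 1.88 and 2.73 CPM, against 0 CPM in the lowest, 0.148 CPM in the median and 0.317 CPM in the highest wild-type library. The groups did not overlap (log2 fold change 3.63, SE 0.81, adjusted p = 0.0359), but the call was lost without any 1 *pup-2(0)* library or wild-type replicate 4, 5 or 6. In *pup-3(0)*, *21ur-1684* (IV:16577734-16577754, plus strand, in an intron of *Y51H4A.8*) was at 36.2, 47.5 and 56.8 CPM, against 5.18, 13.3 and 29.1 CPM in wild type (log2 fold change 1.67, adjusted p = 0.0447). *21ur-5978* (IV:16561500-16561520, minus strand, intergenic) was at 8.73, 17.5 and 30.1 CPM in *pup-3(0)*, against 2.86, 5.28 and 9.17 CPM (1.78, adjusted p = 0.0439), with 1 library inside the wild-type range.

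These calls were lost for *21ur-1684* without any *pup-3(0)* library or wild-type replicate 1, 4, 5 or 6, and for *21ur-5978* without *pup-3(0)* replicate 2 or 3 or wild-type replicate 2, 4, 5 or 6. With wild-type replicate 1 or 3 left out the counts went up instead, to 15 and 10 in *pup-2(0)* and to 6 and 8 in *pup-3(0)*. In *pup-2(0)* the count was 2 without wild-type replicate 2 and 0 without replicate 5 or 6 or any *pup-2(0)* library. In *pup-3(0)* it was 0 without wild-type replicate 4 or 6 or *pup-3(0)* replicate 2 or 3 and 1 without wild-type replicate 5. For *pup-4(0)* it was 0 with any single library left out.

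Steps from 1 mutant strain to the next added few calls. From *pup-1(0)* to the double mutant 5 members were higher and 4 lower (0.458%, against 4.12% of all sRNAs). Higher were *21ur-6126*, *21ur-3338*, *21ur-4611*, *21ur-3398* and *21ur-10003*, and lower were *21ur-3878*, *21ur-2368*, *21ur-7844* and *21ur-11271*. *21ur-3878*, at 20.5 to 33.6 CPM in *pup-1(0)* and 6.62 to 12.7 CPM in the double mutant, was thus above wild type in both but lower in the double by 1.54 on the log2 scale (adjusted p = 0.0372). *21ur-6126*, at 0 in *pup-1(0)*, was at 0.845 to 2.02 CPM in the double mutant. The count was 50 without double replicate 1, 3 without *pup-1(0)* replicate 3 and 2 without *pup-1(0)* replicate 2 or double replicate 2 or 3.

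From the double to the triple mutant 1 member was higher and 0 lower (against 0.487% of all sRNAs). This was *21ur-470*, which had fallen in the double mutant and was at 0.670 to 1.96 CPM in the triple (log2 fold change 2.89, adjusted p = 0.048). From the triple to the quadruple mutant 1 member was higher and 0 lower (against 0.612%). It was *21ur-4516*, in an intron of *sta-1*, at 0 in the triple and 1.84 to 15.3 CPM in the quadruple mutant (adjusted p = 0.0402). The call of *21ur-470* was gone without double replicate 2 or 3 or any triple replicate, and that of *21ur-4516* without any triple replicate or quadruple replicate 1 or 2. Without double replicate 1 the step from double to triple had 3 calls.

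Members in coding sequence were called in 10% of cases in *pup-1(0)*, 20% in the double, 12% in the triple and 10% in the quadruple mutant (n = 50 tested), against 6.54, 4.72, 3.58 and 5.10% of intergenic members (n = 1314). The difference was not tested. Some of them do not stand for piRNA reads alone. Of 20 tested members opposite a coding sequence whose siRNAs the table also lists, 16 never exceeded the host's count and 6 were within 1 count of it in every library. Of 22 on the same strand as the host, 10 and 0 did so. Without members in coding sequence no count of calls changed by over 1.5 times. Introns held 6.41, 4.51, 3.81 and 5.20% called (n = 577).

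Outside the right cluster, the left cluster summed to 556 to 1043 CPM in wild type without replicate 1, which had 4575 CPM, and to 1105 to 1492 CPM in the quadruple mutant. It had 13, 12, 4 and 6 calls among 237 tested piRNAs in *pup-1(0)*, the double, triple and quadruple mutants, of which 4, 9, 2 and 6 were higher. The piRNAs elsewhere summed to 1380 to 2061 CPM in wild type and to 744 to 1338 CPM in the double, 843 to 1007 CPM in the triple and 799 to 855 CPM in the quadruple mutant, all below every wild-type library. Of their 102 tested piRNAs 22.5, 16.7, 12.7 and 16.7% were called in the 4 strains. A share of 29.2% of the piRNAs elsewhere lies in coding sequence, against 3.03% in the right cluster, and whether that share sets the difference was not tested.

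siRNAs antisense to genes of the piRNA pathway were described with a list of 19 genes. Of these, 14 were in the table and all 14 were tested, and *tofu-5*, *tofu-1*, *erh-2*, *henn-1* and *prg-2* are not analysed here. *pup-1(0)* had 0 higher and 1 lower of the 14, where 21% of all sRNAs were called, the double and triple mutants likewise (21.1 and 17.6%), the quadruple mutant 1 higher and 2 lower (21.2%), and the other single mutants 0 by edgeR. siRNAs of *parn-1*, the trimming nuclease, were at 949 ± 280 CPM in wild type (SD, n = 6) and 452, 704, 466 and 450 CPM on average in the 4 strains. They fell by 1.07 on the log2 scale in *pup-1(0)* (adjusted p = 9.83e-05), by 1.02 in the triple and by 1.08 in the quadruple mutant, and were at -0.43 in the double mutant (adjusted p = 0.0743).

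Of the PETISCO genes, siRNAs of *tost-1* fell by 1.54 in the double and 1.20 in the quadruple mutant, and those of *ife-3* rose by 1.08 in the quadruple mutant. siRNAs of the precursor transcription genes *tofu-4*, *snpc-4* and *attf-6* had log2 fold changes of 0.96, 0.93 and 0.86 in *pup-1(0)*, under the threshold of 1 although the adjusted p was 4.10e-05, 0.00023 and 5.04e-08. siRNAs of *prg-1* were at 1102 ± 237 CPM in wild type and at 0.05 on the log2 scale in *pup-1(0)*. The table holds no mRNA, so these values are levels of siRNAs and not of the genes' transcripts.

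The first-named piRNA *21ur-1* (IV:16687107-16687127, plus strand) and *21ur-3372* (IV:15946362-15946382, minus strand), both intergenic members, did not pass the filter. *21ur-1* was at 0 to 0.147 CPM in wild type and reached 2.32 CPM in double replicate 2 alone. *21ur-3372* was at 0 to 0.705 CPM in wild type and at most 0.522 CPM in any mutant library. No difference between strains was detectable at this depth, where 3 counts in a library stood for 0.144 to 3.74 CPM.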

How the data were processed

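sRNA was sequenced in 27 libraries, 6 of wild type and 3 of each of 7 *pup* mutant strains, after RNA 5′ polyphosphatase treatment. The authors trimmed adapters with cutadapt, kept reads of 15 to 26 nt at a quality cutoff of 20, aligned them by HISAT2 and obtained a table through smalldisco. Raw counts for each sRNA and library were deposited, with piRNA reads taken from both strands. IDs were named and placed by an Ensembl annotation of WBcel235 (20147 of 20150 found), a later release than theirs. Members, lists and tests were chosen with earlier results of these data known.

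The software was R 4.3.3, edgeR 4.0.16 and limma 3.58.1. filterByExpr with a minimum count of 10 kept 9645 sRNAs, TMM scaled the libraries, and a robust quasi-likelihood model of genotype alone used all 27 libraries. The paper names EDASeq and RUVSeq without the functions, so TMM was used and 6 factors of unwanted variation, in an implementation written for this work, were an alternative. Summed levels and correlations carry no test. A fold against a group at 0 was set against a floor of 3 counts over the group. Intervals are exact, at 95%, and cover counting error only. The steps were tested on simulated data.

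Named were the 8 most abundant members, the 3 largest rises and falls outside the wild-type range in each strain lacking *pup-1*, the calls in the other single mutants, up to 8 members called alike in all 4 strains lacking *pup-1*, *21ur-1*, *21ur-3372* and pathway genes. The other 6 shared members, the SmY members and those of the steps were named after their values were seen.

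Alternatives were DESeq2 1.42.0 and its size factors, total counts, a fit of piRNAs alone, the 6 factors, minimum counts of 50 or 0, a minimum of 10 CPM in 3 libraries, the replicate number as a block, either set of 3 wild-type libraries, only the compared genotypes, members outside coding sequence or outside SmY genes, and leaving out each library. A check for sequences found more than once in the genome was not made. No pair of replicates agreed within sampling noise.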

Additional observations from a re-analysis of the deposited data

Results flagged for a closer look

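Of 44 values compared among the 6 wild-type libraries, 12 had 1 library far from the other 5. The values share libraries, and many members were chosen by levels or changes that replicate 1 enters, so no chance rate applies. In 11 of the 12 the far library was replicate 1, at the top. Its summed member level was 76221 CPM, with the others at 20075 to 27728 CPM, and its share of counts on members was 5.26%, with the others at 1.98 to 2.82%. Among the abundant members it had 4012 CPM of *21ur-13367* (next library 809 CPM), 2779 CPM of *21ur-11000* (828 CPM), 1798 CPM of *21ur-2290* (544 CPM) and 1375 CPM of *21ur-4730* (261 CPM). Among members named for a change in a mutant it had 1.41 CPM of *21ur-15653* (next 0.317 CPM), 4.23 CPM of *21ur-6422* (1.27 CPM), 6.35 CPM of *21ur-6126* (0.668 CPM), 6.35 CPM of *21ur-15676* (1.82 CPM) and 83.9 CPM of *21ur-5791* (26 CPM). *21ur-15689* had 0.219 CPM in replicate 6 and 0 in the others. In replicate 1 the level of somatic miRNAs was also highest of all libraries, at 105793 CPM, and its part in these values was not tested.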

How the results depend on the processing

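The 80 results for named members gave 1721 values under the alternative settings. Of these values 0 changed direction and 212 lost the call, and 39 results kept it in every setting. A fit of piRNAs alone, which changed the scaling and also the sRNAs fitted and adjusted over, lost the most, 41 of 80. The causes were not tested. Changed counts of called members are given in the order of the strain comparisons and steps. DESeq2 size factors gave 0 in *pup-3(0)*. Total counts gave 4 in *pup-2(0)*, 0 in *pup-3(0)*, 5 from *pup-1(0)* to double and 4 from triple to quadruple, and split the calls 52 higher and 51 lower in *pup-1(0)*, 45 and 45 in the double, 67 and 13 in the triple and 71 and 15 in the quadruple mutant, with the median of all sRNAs moved from -0.13 to 0.17 in the last. piRNAs alone gave 10 in *pup-1(0)*, 0 in *pup-2(0)* and *pup-3(0)*, 13 in the double, 12 in the triple, 21 in the quadruple mutant (9, 11, 10 and 21 of them higher) and 0 in each step. The 6 factors gave 39 in *pup-2(0)*, 87 in *pup-3(0)*, 127 in the triple and 68, 17 and 29 in the steps. A minimum count of 50 gave 77 in *pup-1(0)*, 0 in *pup-2(0)*, 40 in the double, 41 in the triple and 4, 0 and 0 in the steps. No filter gave 0 in *pup-2(0)* and 5, 0 and 2 in the steps. A minimum of 10 CPM gave 68 in *pup-1(0)*, 0 in *pup-2(0)*, 37 in the double, 37 in the triple and 3 and 0 in the first 2 steps. Same-numbered libraries deviated together (correlation over 0.1) in 8 of 21 pairs over all sRNAs and 12 of 21 over members, and no strain had all 3 pairs on both. The replicate block gave 0 in *pup-2(0)* and *pup-3(0)*, 44 in *pup-4(0)*, 52 in the double, 296 in the quadruple mutant and 0 and 48 in the last 2 steps. Wild-type replicates 1 to 3 gave 0 in *pup-2(0)* and *pup-3(0)*, 42 in *pup-4(0)*, 45 in the double and 290 in the quadruple mutant, and replicates 4 to 6 gave 257 in *pup-1(0)*, 68 in *pup-2(0)*, 70 in *pup-3(0)*, 359 in the double, 187 in the triple and 62 in the quadruple mutant. A fit of only the compared genotypes gave 36 in *pup-1(0)*, 0 in *pup-2(0)* and *pup-3(0)*, 20 in the double, 25 in the triple and 3 and 138 in the first and last step. DESeq2 gave 240 in *pup-1(0)*, 10 in *pup-2(0)*, 11 in *pup-3(0)*, 2 in *pup-4(0)*, 125 in the triple, 165 in the quadruple mutant and 30, 0 and 36 in the steps. Leaving out 1 library gave 63 to 223 in *pup-1(0)*, 0 to 15 in *pup-2(0)*, 0 to 8 in *pup-3(0)*, 0 in *pup-4(0)*, 55 to 283 in the double, 40 to 114 in the triple, 50 to 138 in the quadruple mutant and 2 to 50, 0 to 3 and 0 to 1 in the steps.

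The log2 ratio of the summed level with total counts was -0.26 in *pup-4(0)*, -0.026 in the triple and -0.24 in the quadruple mutant, and with piRNAs alone -0.18 in *pup-4(0)*, 0.028 in the double and -0.41 in the quadruple mutant. Wild-type replicates 1 to 3 gave -0.20 in *pup-2(0)*, -0.99 in *pup-4(0)*, -0.50 in the double, -0.76 in the triple and -1.01 in the quadruple mutant, and replicates 4 to 6 gave 0.67, -0.12, 0.37, 0.11 and -0.14 in the same order. Leaving out 1 library gave -0.57 to 0.34 in *pup-1(0)*, -0.0033 to 0.63 in *pup-2(0)*, -0.12 to 0.59 in *pup-3(0)*, -0.73 to -0.17 in *pup-4(0)*, -0.24 to 0.32 in the double, -0.54 to 0.065 in the triple and -0.77 to -0.18 in the quadruple mutant. Of 7466 members 1963 were deep enough to test. A check for repeated sequences was not run.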
